A study of Mus musculus with 30 samples.

Results

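The comparison set 10 B16.IFNα9.gB.luc tumors against 10 B16.IFNα4.gB.luc tumors, chosen by their sample labels, which made 20 of the 30 tumors of the study. Both are mouse B16-F10 melanoma lines that carry the herpes simplex virus glycoprotein B and firefly luciferase, and each secretes a single murine interferon-α subtype from a retroviral vector in which the murine stem cell virus LTR drives the interferon and, through an internal ribosome entry site, enhanced GFP. They were grown under the skin of C57BL/6 mice and taken whole on day 8. The remaining 10 tumors, B16.GFP.gB.luc, carry the same vectors with GFP and no interferon insert and serve here only as a background level. Each type is a single transduced cell line, so a difference that belongs to the line and one that belongs to the interferon subtype cannot be told apart. The LTR is not specific to a cell type, but the transgene was in the tumor cells alone, so host cells met the interferon from outside. The question is which transcripts differ at day 8 between the type that is cleared, IFNα9, and the type that persists, IFNα4.

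Type I interferons of all α subtypes bind one receptor, IFNAR, and act through the kinases JAK1 and TYK2 and a factor complex that holds IRF9 on interferon-stimulated genes (ISGs), whose promoters hold an interferon-stimulated response element (ISRE). Interferon-γ binds another receptor and acts on gamma-activated sites (GAS) and through IRF1. The guanylate-binding proteins (GBPs) and immunity-related GTPases (IRGs), which attack the membranes of intracellular pathogens, and the MHC class II genes are textbook interferon-γ targets, although most GBPs and IRGs also answer to type I interferon. In melanoma, tumor cells, monocytes, macrophages, lymphocytes and vessels can all respond, and a whole tumor gives the sum.

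Total counts ran from 15944776 to 19788383 in the IFNα4 tumors and from 15312860 to 18528910 in the IFNα9 tumors, so depth did not separate the types. The transgenes matched the labels in every tumor. Ifna4 (chr4:88841861-88842421, plus strand, GRCm38) had 81 to 188 counts in each IFNα4 tumor and 0 in each other tumor, at least 42.45-fold above the level that 3 counts per library would give in the IFNα9 tumors. Ifna9 (chr4:88591813-88592385, minus strand) had 55 to 148 counts in each IFNα9 tumor and 0 elsewhere, at least 31.96-fold above that floor in the IFNα4 tumors. This floor covers counting error only. The first principal component, with 25.7% of the variance, separated the types completely, from -34.5 to -13.8 in IFNα4 tumors and from 10.8 to 71.4 in IFNα9 tumors. IFNα9 tumor 10 stood at its far end, and IFNα9 tumor 5 stood at 63.6 on the second component, which held 15.8%. Counts in the lists below that moved by more than 1.5 times without both tumors are given with and without them.

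**Figure D1:**
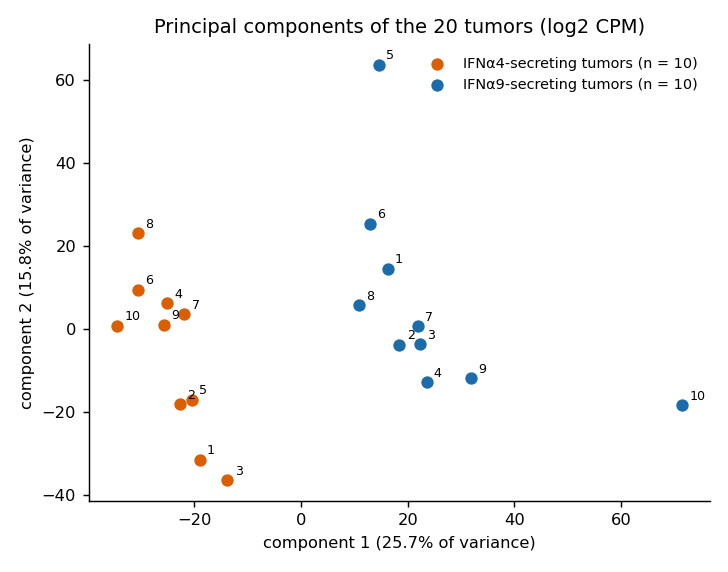
Principal components 1 (horizontal) and 2 (vertical) of log2 CPM in the 20 tumors, with each tumor's replicate number beside its point. The types lie apart on component 1, IFNα9 tumor 10 lies at 71.4 on it, and IFNα9 tumor 5 lies at 63.6 on component 2.

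Markers of skeletal muscle, which lies under the skin, differed between the types. Of 19 skeletal muscle genes tested, 18 were lower in IFNα9 tumors and 0 were higher, and their summed level ran over 7166 to 25518 CPM (median 14036) in IFNα4 tumors against 2974 to 21361 CPM (median 6612) in IFNα9 tumors. In B16.GFP.gB.luc tumors it ran over 5807 to 28530 CPM (median 10256), and no defining marker (Acta1, Ckm or Myh4) was at 0 in any tumor. Counts below are therefore also given, where they change by more than 1.5 times, from a fit with the mean log2 CPM of the muscle list as a term, chosen after seeing the data. Because that level itself differed between the types, the term also takes up part of any type difference. Ptprc (CD45), carried by all white blood cells and singled out after its values were seen, was -0.52 on the log2 scale in IFNα9 against IFNα4 tumors, with medians of 494 CPM in IFNα4 and 336 CPM in IFNα9 tumors. That call was lost in 10 of 20 fits that left out 1 tumor, and the value was -0.97 with the muscle term. In whole tumors, fewer cells of a type and less RNA per cell cannot be told apart.

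The same kind of promoter element was found in lists whose called members lay in opposite directions. In the RefSeq promoter windows (GRCm38.p6, 250 bases before to 50 after each start), the ISRE core (GAAA, any 2 bases, then GAAA), searched like the others on both strands, was in 3.4% of all 32851 windows, in 13 of 32 windows (40.6%) of the antiviral ISG list, of which 27 of 35 tested genes fell in IFNα9 tumors, and in 10 of 12 windows (83.3%) of the GBP and IRG list, of which 10 of 17 tested genes rose. The windows belong to 25 antiviral and 11 GBP and IRG genes, called or not, and the other members had no window. The GAS core TTCNNNGAA was in 8.3% of all windows, in 28.1% of the antiviral ISG windows and in 50.0% of the GBP and IRG windows. An ISRE or GAS match can overlap the other, since both contain TTC or GAA. Shown are the 250 bases before the start of Ifit1 (chr19:34640639-34640888 on the plus strand) and Ifit1bl1 (chr19:34601969-34602218 on the minus strand), which fell in IFNα9 tumors, and of Gbp2 (chr3:142620413-142620662 on the plus strand) and Gbp2b (chr3:142594597-142594846 on the plus strand), which rose, each with its ISRE core in capitals. They are followed by Irf1 (chr11:53769764-53770013 on the plus strand), which rose, with its GAS core in capitals, and by the melanocyte gene Tyrp1 (chr4:80833963-80834212 on the plus strand), which rose, with the M-box core TCATGTG of the factor MITF in capitals. Each is written 5′ to 3′ on the gene's strand, and a match describes letters, not binding.

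Ifit1: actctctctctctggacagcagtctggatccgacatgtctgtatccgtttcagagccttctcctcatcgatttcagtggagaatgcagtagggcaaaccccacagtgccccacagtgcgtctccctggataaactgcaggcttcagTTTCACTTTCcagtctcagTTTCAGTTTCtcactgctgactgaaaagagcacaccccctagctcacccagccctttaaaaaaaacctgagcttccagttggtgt
Ifit1bl1: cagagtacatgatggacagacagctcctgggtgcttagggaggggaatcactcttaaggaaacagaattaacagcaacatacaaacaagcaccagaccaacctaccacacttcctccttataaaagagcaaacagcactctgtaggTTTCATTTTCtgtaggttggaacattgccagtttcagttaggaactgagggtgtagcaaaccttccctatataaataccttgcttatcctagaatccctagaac
Gbp2: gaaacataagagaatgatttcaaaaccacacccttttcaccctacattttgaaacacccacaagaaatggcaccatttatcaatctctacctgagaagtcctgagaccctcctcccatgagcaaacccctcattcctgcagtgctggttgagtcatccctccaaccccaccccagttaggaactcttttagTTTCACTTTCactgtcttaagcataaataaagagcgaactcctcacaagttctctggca
Gbp2b: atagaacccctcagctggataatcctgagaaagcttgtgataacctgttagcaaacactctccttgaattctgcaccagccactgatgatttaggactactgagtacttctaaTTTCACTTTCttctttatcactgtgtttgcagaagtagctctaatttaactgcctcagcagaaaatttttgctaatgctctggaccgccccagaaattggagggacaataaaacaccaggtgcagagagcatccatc
Irf1: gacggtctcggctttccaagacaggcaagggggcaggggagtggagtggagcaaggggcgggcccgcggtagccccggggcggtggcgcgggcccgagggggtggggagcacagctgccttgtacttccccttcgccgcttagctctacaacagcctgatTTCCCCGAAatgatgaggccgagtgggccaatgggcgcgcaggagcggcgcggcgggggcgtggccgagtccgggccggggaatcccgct
Tyrp1: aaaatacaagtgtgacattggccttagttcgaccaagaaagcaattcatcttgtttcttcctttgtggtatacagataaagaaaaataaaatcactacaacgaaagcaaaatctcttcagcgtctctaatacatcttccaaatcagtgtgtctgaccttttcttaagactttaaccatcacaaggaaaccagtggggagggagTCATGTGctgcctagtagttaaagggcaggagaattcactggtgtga

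Ifit1 held 2 ISRE cores, whose first bases lay 104 and 85 bases before the start, and Ifit1bl1 held 1 at 104. Gbp2 had its core at 59 and Gbp2b at 137, both with the same letters TTTCACTTTC as the first match in Ifit1. The Irf1 match began 90 bases before the start and the Tyrp1 match 47 bases before it.

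Of 15981 genes tested, 4332 (27.1%) differed between the types at an adjusted p under 0.05. Of these, 2346 (14.7% of those tested) were higher in IFNα9 tumors and 1986 (12.4%) were lower. Differences were mostly small, with a median size of 0.473 on the log2 scale among genes called, and 502 passed 2-fold, 252 higher and 250 lower. In 331 genes (2.07%) every IFNα9 tumor lay above every IFNα4 tumor and in 122 (0.763%) every one lay below, or 453 (2.83%) in all. The median log2 fold change over all genes was -0.01. With the muscle term, 1243 genes were higher and 1401 lower.

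**Figure D2:**
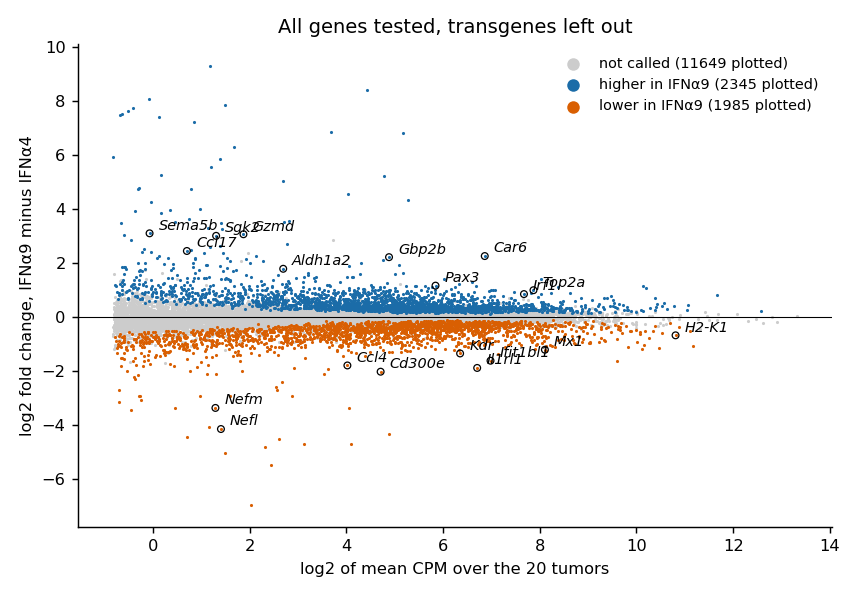
Log2 fold change (IFNα9 minus IFNα4, vertical) against the log2 of the mean CPM (horizontal) for each gene tested without the 2 transgenes; blue genes were higher and orange genes lower in IFNα9 tumors, and circles mark genes named in the text. Gzmd and Sema5b lie near 3, Nefl lies at -4.16, and the points above 4 are mostly hair genes and pseudogenes high in few tumors.

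Among genes whose tumors did not overlap, Gzmd, a granzyme of cytotoxic lymphocytes, had 0.474, 0.681 and 1.53 CPM (lowest, median and highest) in IFNα4 tumors and 1.99, 5.97 and 14.1 CPM in IFNα9 tumors. It was 8.33-fold higher in IFNα9 tumors (log2 fold change 3.06 ± 0.31, SE; edgeR quasi-likelihood test, Benjamini-Hochberg adjusted p = 6.22e-07). Sema5b, a semaphorin that guides axons, rose from a median of 0.233 to 1.56 CPM (log2 fold change 3.09 ± 0.36). The other largest rises of this kind were Sgk2 (3.00), Dhrs2 (2.51), Vil1 (2.46), Ccl17 (2.44), Fbxw18 (2.38), Fam71f1 (2.26) and Car6 (2.25) on the log2 scale. Sgk2 is a kinase, Dhrs2 a short-chain dehydrogenase, Vil1 the actin bundler villin, Ccl17 a chemokine that draws CCR4-bearing T cells and Car6 a secreted carbonic anhydrase. Car6 was at 26.3, 42.6 and 56.2 CPM in IFNα4 tumors, 112, 156 and 494 CPM in IFNα9 tumors and 299, 464 and 690.5 CPM in B16.GFP.gB.luc tumors. All IFNα4 tumors and 9 of 10 IFNα9 tumors thus lay below all B16.GFP.gB.luc tumors for Car6. Dhrs2 was at 0.051, 0.218 and 0.581 CPM in IFNα4 tumors, 0.649, 1.33 and 2.77 CPM in IFNα9 tumors and 5.41, 10.6 and 22.7 CPM in B16.GFP.gB.luc tumors, so both interferon types were below all B16.GFP.gB.luc tumors. Sgk2 was at 0.113, 0.523 and 0.978 CPM in IFNα4 tumors, 2.22, 3.72 and 11.7 CPM in IFNα9 tumors and 2.18, 4.11 and 8.74 CPM in B16.GFP.gB.luc tumors, with the IFNα4 tumors below both other types.

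Among genes whose tumors did not overlap, with Gm names, Rik clones and pseudogenes left out, the largest falls were in neurofilaments, the intermediate filaments of neurons that neural crest tumors can also express. Nefl, the light chain, had 1.21, 5.31 and 8.69 CPM in IFNα4 tumors and 0, 0.178 and 0.595 CPM in IFNα9 tumors. Its log2 fold change was -4.16 ± 0.41 (edgeR quasi-likelihood test, adjusted p = 4.62e-07). Nefm, the medium chain also on chromosome 14, had 1.27, 4.87 and 7.43 CPM in IFNα4 and 0.13, 0.407 and 0.776 CPM in IFNα9 tumors (log2 fold change -3.38 ± 0.33). Neither overlapped between types, and B16.GFP.gB.luc tumors, with highest values of 0.624 and 0.457 CPM, were as low as IFNα9 tumors. Next among these came Cd300e (-2.03), a receptor of monocytes, Casr (-2.01), the calcium-sensing receptor, BC049352 (-2.003) and Chrna1 (-1.91), the muscle acetylcholine receptor subunit, which was -1.61 with the muscle term. D13Ertd608e, Disp2 and Klk1b5 fell by 1.87, 1.82 and 1.82 on the log2 scale. Of the 50-base stretches of D13Ertd608e, 89.6% are shared with other genes, so its count is uncertain.

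Most of the larger fitted changes rested on few tumors. Of 57 genes called with a log2 fold change beyond 3, only 5 kept the types apart, namely Nefl, Nefm, Gzmd, Sema5b and the long noncoding RNA Gm19385. Across all genes called, 55 had more than 50% of their type's summed CPM in 1 tumor, 25 of these were processed pseudogenes, and 25 of the 55 were no longer called without that tumor. Hair keratin, keratin-associated and trichohyalin genes made up 17 of the 55, all highest in IFNα9 tumor 6. Krt71, a keratin of the hair root sheath chosen here after its values were seen, reached 435 CPM in that tumor against a median of 0.261 CPM in IFNα9 and 0.231 CPM in IFNα4 tumors, and up to 3811 CPM in a B16.GFP.gB.luc tumor. The pseudogene Rps3a2, also chosen after its values were seen, had 425 CPM in IFNα9 tumor 3 and at most 0.161 CPM in the other IFNα9 tumors. Its log2 fold change of 8.39 turned to -0.40 without tumor 3, and with 90.2% of its 50-base stretches shared with other genes its count is uncertain. A different case was Zscan4f, a gene of the early embryo found after the fact, at 0.288, 1.13 and 3.34 CPM in IFNα4 and 0, 0.143 and 0.538 CPM in IFNα9 tumors (log2 fold change -3.07 ± 0.51). Of its 50-base stretches, 86.8% are shared with other genes of its family, so its count is uncertain.

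Antiviral ISGs were lower in IFNα9 than in IFNα4 tumors. Of 35 antiviral effector genes tested, 27 fell and 0 rose, against 12.4% and 14.7% of all genes, and the list's median log2 fold change was -0.45. Ifit1, which blocks translation of viral RNA, was at 417, 578 and 692 CPM in IFNα4 tumors, 259.8, 332 and 387 CPM in IFNα9 tumors and 13.8, 36.6 and 81.99 CPM in B16.GFP.gB.luc tumors. Both interferon types thus stood well above the background, and every IFNα9 tumor lay below every IFNα4 tumor (log2 fold change -0.76 ± 0.10; edgeR quasi-likelihood test, adjusted p = 1.09e-05). Mx1, of the same list, was at 253, 419 and 468 CPM in IFNα4 and 129, 169 and 202 CPM in IFNα9 tumors. Its fall of 1.22 on the log2 scale again left no overlap. Ifit1bl1, a relative of Ifit1, changed most, with 88.7, 206 and 286 CPM in IFNα4 tumors and 36.6, 65.8 and 94.95 CPM in IFNα9 tumors (log2 fold change -1.63 ± 0.18), and 9 of 10 IFNα9 tumors lay below the lowest IFNα4 tumor. Ifit3 (-0.80) and its near copy Ifit3b (-0.82) overlap in sequence, with 51.2% of the 50-base stretches of Ifit3 found in the other, so reads may be split between them. Isg15 and Cmpk2 were not analysed here.

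Sensors of nucleic acid followed, with 66.7% called lower against 12.4% of all genes. Of 18 tested, 12 fell and 0 rose (median -0.48), among them Ifih1 (-0.48), which encodes the RNA sensor MDA5, and Ifi209 (-1.05), of the interferon-inducible p200 family. Zbp1 and Cgas, sensors of Z-form nucleic acid and of cytosolic DNA, had log2 fold changes of -0.07 and -0.16 that were not called. Cgas was called with the muscle term (-0.39). In the Trim cluster of chromosome 7, whose members restrict viruses or tune signaling, 6 of 11 fell and 0 rose (median -0.34). Trim6, at 4.62, 5.67 and 8.16 CPM in IFNα4 and 1.31, 2.35 and 3.52 CPM in IFNα9 tumors, fell by 1.33 without overlap. Trim34a fell by 0.38, but shares 39.8% of its stretches with other genes, mainly Trim34b. Trim30a (-0.30) and Trim12c (-0.07) were not called, but Trim30a was with the muscle term (-0.57), and without IFNα4 tumor 6, IFNα4 tumor 8 or IFNα9 tumor 10.

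In the signaling chain itself, 7 of 19 genes fell and 1 rose (median -0.20). Irf7, the factor that amplifies interferon production, was at 527, 699 and 819.7 CPM in IFNα4 tumors and 292, 349 and 442 CPM in IFNα9 tumors. Irf7 had a log2 fold change of -0.96 ± 0.08 (edgeR quasi-likelihood test, adjusted p = 9.26e-08), with no overlap. Ifnar1, a chain of the receptor, was -0.15 and not called, although it was with the muscle term (-0.36). Both chains of the interferon-γ receptor, Ifngr1 (-0.35) and Ifngr2 (-0.31), fell. The single rise was Irf1, at 116, 137 and 187 CPM in IFNα4 and 128, 229 and 487 CPM in IFNα9 tumors (log2 fold change 0.84 ± 0.20, adjusted p = 0.0033 in the edgeR test). Of 10 IFNα9 tumors, 7 lay above all IFNα4 tumors and the rest lay among them. The Irf1 call was lost with the muscle term (0.61).

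The GBPs and IRGs moved the other way. Of 17 tested, 10 rose in IFNα9 tumors and 0 fell, with a median log2 fold change of 0.61. Some GBPs and IRGs are near copies, so their counts are uncertain and not independent of one another. Tgtp1 and Tgtp2 share 81.2% and 86.6% of their stretches with other genes, including each other. Gbp6 and Gbp10 share 70.7% and 84.1% in the same way. Gbp2 was at 324, 494 and 720.2 CPM in IFNα4 tumors, 351, 733 and 1564 CPM in IFNα9 tumors and 25.95, 62.1 and 141 CPM in B16.GFP.gB.luc tumors. It rose by 0.71 ± 0.24 on the log2 scale (adjusted p = 0.032, edgeR), but the types overlapped and 6 of 20 fits that left out 1 tumor lost the call. Gbp2b had the largest rise, from 5.47, 10.1 and 20.3 CPM in IFNα4 to 7.41, 39.3 and 146 CPM in IFNα9 tumors (log2 fold change 2.21 ± 0.42), with 7 of 10 IFNα9 tumors above all IFNα4 tumors. Igtp, an IRG whose exons overlap those of Irgm2, rose by 0.62 and Irgm1 by 0.38. With the muscle term the calls for Gbp2 (0.41), Gbp2b (1.5), Igtp (0.54) and Irgm1 (0.25) were lost. The call for Irgm1 was lost in 14 of 20 fits without 1 tumor and under DESeq2's size factors (0.37).

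The spread among IFNα9 tumors was the main feature of this group. The mean log2 CPM of the list ran from 7.32 to 9.26 in IFNα9 tumors and from 7.25 to 8.16 in IFNα4 tumors. IFNα9 tumors 1, 5 and 10, between 7.32 and 7.51, and tumor 6, at 7.94, lay within the IFNα4 range, while tumors 2 and 8 lay highest, at 9.26 and 9.24. No GBP or IRG gene kept the types apart. Without IFNα9 tumors 5 and 10 the count of rises was 12, and with the muscle term it was 2.

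**Figure D3:**
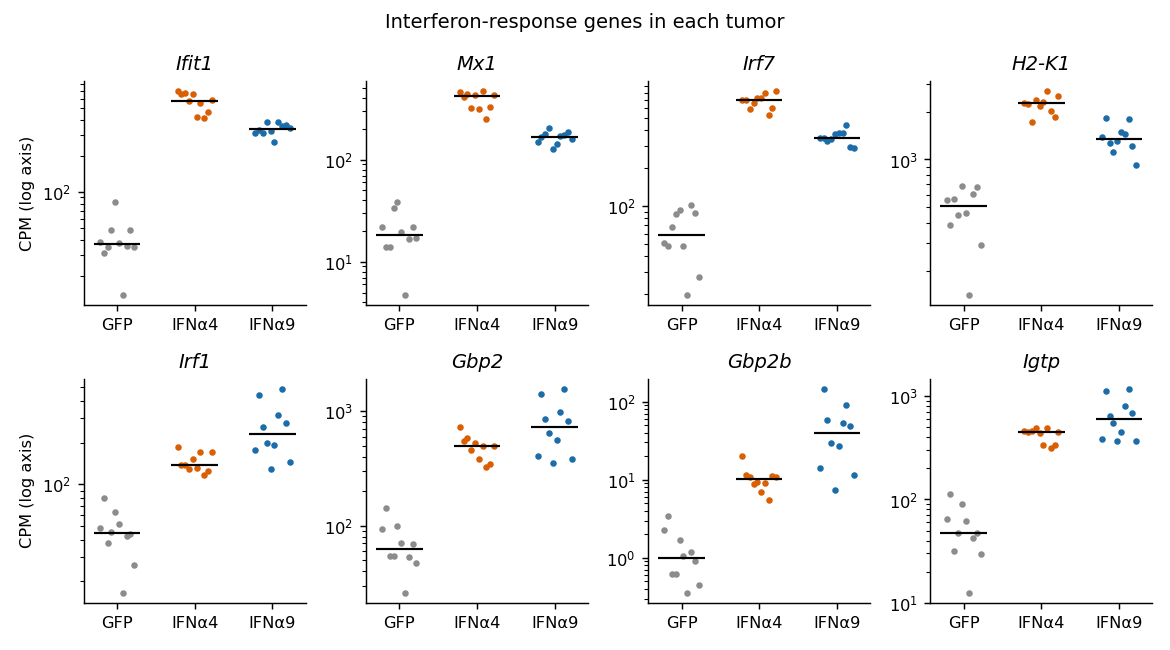
CPM (vertical, log axis) of 8 interferon-response genes in each tumor of the 3 types, 10 points a type with a bar at the median. Ifit1, Mx1 and Irf7 lie lower in every IFNα9 than in every IFNα4 tumor, whereas Irf1, Gbp2, Gbp2b and Igtp have higher medians and a wide spread in IFNα9 tumors.

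MHC class I heavy chains fell while the rest of the class I pathway was not called. Of 19 class I presentation genes, 8 fell and 0 rose (median -0.22). H2-K1, a classical heavy chain, was at 1717, 2257 and 2685 CPM in IFNα4 and 921, 1350 and 1828 CPM in IFNα9 tumors, -0.69 on the log2 scale, with 8 of 10 IFNα9 tumors below all IFNα4 tumors. H2-Q6, a nonclassical chain that shares 32.0% of its stretches with other genes, fell by 0.98 without overlap. All 8 members that fell were heavy chains. B2m, their common light chain (-0.09), and Tap1, which loads peptides into the endoplasmic reticulum (-0.13), were not called. Among 9 class II genes, 4 rose and 1 fell (median 0.28). H2-DMa, which exchanges class II peptides, rose by 0.69, H2-Eb2 fell by 0.87, and H2-Aa was 0.28 and not called, except without IFNα9 tumor 10 (0.35). The count of rises moved from 4 to between 1 and 6 when single tumors were left out, with 1 rise without IFNα9 tumor 2 or IFNα9 tumor 8 and 2 when any 1 of IFNα4 tumors 1 to 6 and 9 or IFNα9 tumors 3, 6 and 7 was left out. It was 6 without IFNα9 tumors 5 and 10 and 1 with the muscle term, under which H2-Eb2 was not called (-0.82). Cd74 and Ciita were not analysed here.

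Inflammatory cytokines and their NF-κB regulators were lower in IFNα9 tumors. Of 28 genes, 21 fell and 1 rose (median -0.56). Tnf, the cytokine tumor necrosis factor, was at 10.9, 15.6 and 23.3 CPM in IFNα4 tumors and 5.29, 7.2 and 11.8 CPM in IFNα9 tumors (log2 fold change -0.95 ± 0.16; edgeR quasi-likelihood test, adjusted p = 1.18e-04). In 8 of 10 IFNα9 tumors it was below the lowest IFNα4 tumor. Il1b fell by 0.55, with the call lost without IFNα9 tumors 5 and 10 and with the muscle term. Nos2, the inducible nitric oxide synthase of activated macrophages, rose by 1.04, and 13 of 20 fits without 1 tumor lost that call, as did the fit with the muscle term (0.29). The chemokines divided, with 5 of 28 higher and 10 lower (median -0.28).

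Ccl4, a chemokine made by activated myeloid and NK cells, was at 12.6, 23.5 and 40.3 CPM in IFNα4 and 5.25, 6.88 and 10.2 CPM in IFNα9 tumors. Its log2 fold change was -1.80 ± 0.18, with no overlap (edgeR quasi-likelihood test, adjusted p = 7.59e-07). Ccl2, which recruits monocytes, fell by 0.90 and Ccl5, which recruits T cells, by 0.76, the latter not called with the muscle term (-0.65). Cxcl10, a ligand of CXCR3, was -0.26 and not called, except without IFNα9 tumor 8 (-0.39). The rises included both CCR4 ligands, Ccl17 and Ccl22. Ccl17 was at 0.0566, 0.493 and 1.21 CPM in IFNα4 and 1.51, 2.54 and 5.43 CPM in IFNα9 tumors, without overlap. Ccl22 was at 11.5, 14.03 and 20.1 CPM and 19.1, 34.3 and 41.8 CPM (log2 fold change 1.09 ± 0.14), with 8 of 10 IFNα9 tumors above all IFNα4 tumors. The other rises, Ccl6 (1.38), Ccl8 (0.79) and Ccl24 (1.42), are chemokines that macrophages make.

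**Figure D4:**
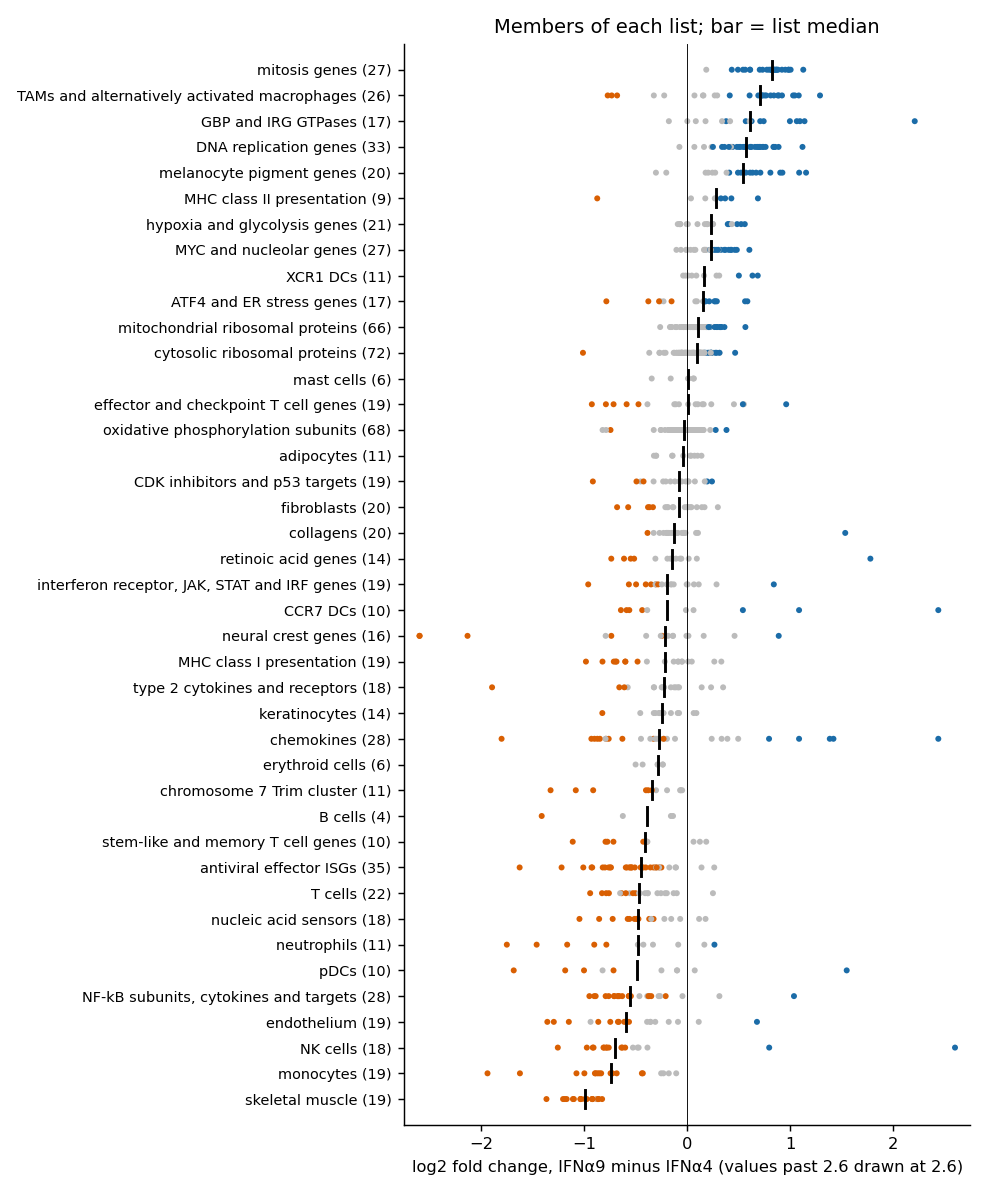
Log2 fold change (IFNα9 minus IFNα4, horizontal) of each member of the 41 gene lists, ordered by list median (black bar) with the number tested in brackets; blue members were higher, orange lower and gray not called, with values past 2.6 drawn at 2.6. Mitosis (median 0.82) and TAM genes (median 0.71) lie at the top, and monocyte (median -0.74) and skeletal muscle genes (median -0.99) at the bottom.

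Markers of the myeloid compartment changed in opposite directions by subset. Of 19 monocyte genes, 15 fell in IFNα9 tumors and 0 rose (median -0.74), and of 26 genes of tumor-associated macrophages (TAMs) and alternative activation, 16 rose and 3 fell (median 0.71). Ly6c2, the marker of inflammatory monocytes, was at 529, 876 and 995 CPM in IFNα4 and 272, 488 and 609 CPM in IFNα9 tumors (log2 fold change -0.90 ± 0.12; edgeR quasi-likelihood test, adjusted p = 2.00e-05). All but 1 of the IFNα9 tumors lay below the IFNα4 range. Fcgr1, which encodes CD64, fell by 0.85 and Chil3, a chitinase-like protein, by 1.94, while Ccr2, the receptor for CCL2, was -0.25 and not called, except with the muscle term (-0.74). Several monocyte genes, Slfn4, Ms4a4c and Fcgr1 among them, are also known to answer to interferon.

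Mrc1, the mannose receptor CD206 of alternatively activated macrophages, was at 117, 189 and 268 CPM in IFNα4 tumors, 169, 319.8 and 476 CPM in IFNα9 tumors and 97.8, 362 and 435 CPM in B16.GFP.gB.luc tumors (log2 fold change 0.73 ± 0.17). The call was lost with the muscle term (0.50), under which 10 genes of the list rose. Mgl2, a galactose lectin, was at 38.7, 66.2 and 99.9 CPM in IFNα4 and 75.5, 135 and 171 CPM in IFNα9 tumors, with 8 of 10 IFNα9 tumors above all IFNα4 tumors. Lyve1, carried by resident macrophages and by lymphatic vessels, rose most, by 1.29 ± 0.20 on the log2 scale, and Fcrls by 0.89. Mmp13, a collagenase, fell by 0.77, with the call lost in 6 of 20 fits without 1 tumor, and 1 gene of the list fell without IFNα9 tumors 5 and 10. Arg1 and Retnla were not analysed here.

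Most type 2 cytokines could not be tested, since Il5 and Il13 had too few counts and Il9, Il25 and Tslp were not analysed here, so the list holds mainly receptors and regulators. Of 18 type 2 cytokine and receptor genes, 0 rose and 3 fell (median -0.23). The 16.7% called, all falls, stands beside 12.4% of all genes lower and 27.1% called in either direction. Il4, at 1.1, 1.71 and 2.56 CPM in IFNα4 and 1.29, 1.84 and 3.44 CPM in IFNα9 tumors, was 0.14 ± 0.20 on the log2 scale and not called, and Il33 was -0.23, called only with the muscle term (-0.61). The largest fall was Il1rl1, the receptor for IL-33, at 38.4, 157 and 266 CPM in IFNα4 and 10.4, 44.3 and 75.8 CPM in IFNα9 tumors (log2 fold change -1.90 ± 0.29; edgeR quasi-likelihood test, adjusted p = 6.69e-05). In B16.GFP.gB.luc tumors it was at 8.38, 26.9 and 39.8 CPM, so the IFNα4 tumors were the high group. Leaving out IFNα9 tumor 8 gave 5 falls. Among 6 mast cell genes, which include Cpa3 (0.06), 0 rose and 0 fell in the edgeR test. Of 11 neutrophil genes, 5 fell and 1 rose (median -0.48), namely S100a9 (-1.17), Csf3r (-0.79), Mmp8 (-1.75), Clec4d (-0.90) and Hdc (-1.46) as falls. S100a8 (-0.43), the partner of S100a9, was not called except when IFNα9 tumor 9 was left out, and both had medians of 1.07 to 2.78 CPM. The single rise, Slc7a11 (0.26), is the cystine transporter that tumor cells use too, and it was not called with the muscle term. Without IFNα4 tumor 4 there were 2 rises.

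Most NK cell genes fell, and a granzyme rose. Of 18 tested, 12 fell and 2 rose (median -0.70), the rises being Gzmd and Klrg1 (0.80), with 1 rise, 16 falls and a median of -1.23 under the muscle term. Klrb1c, which encodes NK1.1, was at 9.32, 23.2 and 28.6 CPM in IFNα4 tumors, 4.03, 11.9 and 20.7 CPM in IFNα9 tumors and 0.535, 1.51 and 2.54 CPM in B16.GFP.gB.luc tumors. It fell by 0.78 with overlapping ranges and was -1.39 with the muscle term. Klra4, a Ly49 receptor, fell by 1.26, whereas Ncr1, the receptor NKp46, was -0.53 and not called. Ncr1 was called without IFNα4 tumor 8, and also with the muscle term (-1.32). Gzma, Gzmb, Prf1 and Ifng were not analysed here.

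T cell genes fell in part. Of 22 tested, 8 fell and 0 rose (median -0.46), with 36.4% called lower against 12.4% of all genes. Cd4, at 15.2, 18.7 and 36.8 CPM in IFNα4 and 5.26, 13.3 and 16.6 CPM in IFNα9 tumors, fell by 0.83, while Cd3e (-0.13 ± 0.18) and Cd8a (-0.39 ± 0.28) were not called. CD4 is also carried by some myeloid cells. Gimap3, a lymphocyte GTPase, fell by 0.94. Of 10 stem-like and memory T cell genes, 6 fell and 0 rose (median -0.41). Tcf7, the stem-like factor TCF1, fell by 0.39, and its partner Lef1 was 0.12 and not called, with -0.10 under the muscle term. Lef1 was highest in IFNα9 tumor 6 (16.4 CPM) among the types and reached 35.5 CPM in the B16.GFP.gB.luc tumor with the highest Krt71, the hair keratin above, and the part of hair cells in its level was not tested.

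Effector and checkpoint genes had no common direction, with 2 of 19 higher and 5 lower (median 0.01). Pdcd1 (-0.13) and Ctla4 (0.15), at most 4.71 and 12.9 CPM in any tumor of the types, were not called. Cd38, an ectoenzyme of activated cells, rose by 0.96, but at 14.7, 19.3 and 30.4 CPM in IFNα9 tumors it was below the median of B16.GFP.gB.luc tumors (21.8, 36.3 and 48.7 CPM), and the IFNα4 tumors were the low group (7.19, 10.1 and 16.8 CPM). Tbx21, the factor T-bet of T and NK cells, fell by 0.93. The muscle term left 1 rise, and 3 fell without IFNα9 tumors 5 and 10. Leaving out 1 tumor lowered the falls to 3 in 7 of 20 fits (IFNα4 tumors 1, 5, 6 and 7 and IFNα9 tumors 1, 9 and 10). Of 4 B cell genes with enough counts, 1 fell, Pax5 (-1.41), and 0 rose, with 2 falls without IFNα4 tumor 6 or IFNα9 tumor 5. The 25.0% called stands beside 12.4% of all genes lower and 27.1% called in either direction.

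Among 11 genes of XCR1 dendritic cells (DCs), which cross-present tumor antigen, 3 rose and 0 fell (median 0.16). The 27.3% called, all rises, stands beside 14.7% of all genes higher and 27.1% called in either direction. Xcr1 was at 4.49, 6.61 and 9.84 CPM in IFNα4 and 7.97, 10.5 and 15.1 CPM in IFNα9 tumors and rose by 0.68 ± 0.14, with 5 of 10 IFNα9 tumors above the IFNα4 range. Clec9a (0.04) and Batf3 (0.31), which mark the same cells, were not called. Of 10 genes of CCR7 DCs, the mature migratory state, 3 rose and 4 fell (median -0.20). Ccr7 itself was 0.06 and Fscn1, an actin bundler, fell by 0.44, a call lost without IFNα4 tumor 10. None of the list (0 genes) fell with the muscle term. The rises were the chemokines Ccl17 and Ccl22 and Tnfrsf9 (0.54), which also stand in other lists. Of 10 genes of plasmacytoid DCs (pDCs), the professional makers of type I interferon, 4 fell and 1 rose (median -0.48). Siglech was at 2.37, 3.0 and 3.9 CPM in IFNα4 and 0.773, 1.46 and 2.79 CPM in IFNα9 tumors (log2 fold change -1.003). Ccr9 (-0.72), the lineage factor Spib (-1.19) and Klk1 (-1.69) fell with it, and Pacsin1 rose by 1.55. These were low, at most 12.3 CPM in any tumor of the types.

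Genes of the melanocyte and neural crest lineages differed as well, and which cells of the whole tumor carried them was not tested. Of 20 melanocyte pigment genes, 13 rose in IFNα9 tumors and 0 fell (median 0.55). Tyrp1, an enzyme of melanin synthesis chosen for its promoter after its values were seen, was at 1702, 2454 and 2807 CPM in IFNα4 tumors, 2814, 3769 and 7684 CPM in IFNα9 tumors and 6129, 7817 and 20489 CPM in B16.GFP.gB.luc tumors. It rose by 0.81 ± 0.15 on the log2 scale without overlap, and the M-box core shown in its promoter was in 6 of 20 windows of the list against 3.8% of all. Pax3, a melanocyte lineage factor, rose most, from 26.2, 34.9 and 44.8 CPM in IFNα4 to 52.4, 76.2 and 136 CPM in IFNα9 tumors (log2 fold change 1.15 ± 0.14; edgeR quasi-likelihood test, adjusted p = 4.92e-06). Mitf, the master factor, rose by 0.41, a call lost in 12 of 20 fits that left out 1 tumor, without IFNα9 tumors 5 and 10 together and with the muscle term (0.24). Tyr, tyrosinase, was 0.27 and not called. In the list of neural crest genes 1 of 16 rose and 5 fell (median -0.21). Beside Nefl and Nefm, Gap43 (-2.13), a growth cone protein, Aqp1 (-0.74) and Axl (-0.24) fell, Gfap (0.89) rose, and Ngfr (-0.40) was not called. Only 3 of them fell with the muscle term, without Axl. The mean log2 CPM of the pigment list was highest in B16.GFP.gB.luc tumors, with medians of 6.82 there, 5.71 in IFNα4 and 6.25 in IFNα9 tumors.

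Genes of the cell cycle rose almost throughout. Of 33 DNA replication genes, 28 rose and 0 fell (median 0.57), and of 27 mitosis genes, 26 rose and 0 fell (median 0.82). Mcm2, a subunit of the replicative helicase, was at 41.1, 51.6 and 60.1 CPM in IFNα4 tumors, 69.8, 82.4 and 147 CPM in IFNα9 tumors and 117, 187 and 426 CPM in B16.GFP.gB.luc tumors. Every IFNα9 tumor lay above every IFNα4 tumor (log2 fold change 0.85 ± 0.12; edgeR quasi-likelihood test, adjusted p = 3.09e-05). Mcm10, which activates the helicase, rose by 1.12, Pcna, the sliding clamp, by 0.34 and Cdc45 by 0.44. Top2a, the topoisomerase of dividing cells, was at 132, 156 and 187 CPM in IFNα4 and 212, 295 and 471 CPM in IFNα9 tumors, again without overlap. Bub1, a spindle checkpoint kinase, rose by 1.13, Mki67 by 0.86 (0.51 with the muscle term) and Cdk1 by 0.54. Every IFNα9 tumor lay above every IFNα4 tumor for 13 of 33 replication and 9 of 27 mitosis genes, against 2.07% of all genes. With the muscle term 24 replication and 23 mitosis genes rose, and without IFNα9 tumors 5 and 10 the counts were 27 and 25. The E2F core GCGGGAA was in 14 of 34 windows (41.2%) of the replication genes, in 4.6% of all windows and in 0 of 24 windows of the mitosis genes.

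Of 19 CDK inhibitors and p53 targets, 2 rose and 3 fell (median -0.08), shares near the 14.7% and 12.4% of all genes, and 1 rose without IFNα9 tumors 5 and 10. Cdkn1a, which encodes p21, was -0.08 and Mdm2 -0.16, neither called, but both were lower with the muscle term (-0.28 and -0.43), under which 5 of the list fell and 0 rose, and Mdm2 was also called lower without IFNα9 tumor 10 (-0.23). Trp53 rose by 0.19, Cdkn1b, p27, rose by 0.24, a call lost in 12 of 20 fits without 1 tumor and reversed to -0.02 with the muscle term, and Eda2r, a receptor that p53 induces, fell by 0.92 without overlap. Of 27 MYC and nucleolar genes, 13 rose and 0 fell (median 0.23), with nucleolin (Ncl, 0.48) and nucleophosmin (Npm1, 0.60) among the rises, while Myc was 0.06 and not called. Of 72 cytosolic ribosomal protein genes, 11 rose and 1 fell (median 0.09), a share of rises near the 14.7% of all genes, and 2 rose in a fit of all 30 tumors. Rpl13a (0.46) rose most and Rpl10a rose by 0.17, with Rpl10 (-0.03) not called. The member that fell, Rpl3l (-1.01), is the form found in muscle and was not called with the muscle term (-0.13). The call for Rpl10a was lost in 13 of 20 fits without 1 tumor.

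Of 66 mitochondrial ribosomal protein genes, 14 rose and 0 fell (median 0.10), led by Mrps25 (0.56, no overlap), and 7 rose without IFNα9 tumors 5 and 10. The 21.2% called, all rises, stands beside 14.7% of all genes higher and 27.1% called in either direction. Mrpl1 (-0.11), Mrpl10 (0.09) and Mrpl12 (0.26) were not called. Few oxidative phosphorylation subunits were called, with 2 rises and 1 fall among 68 (median -0.03). Atp5a1 (0.01), Atp5b (0.14) and Atp5c1 (0.10) of the ATP synthase were not called, Ndufv3 rose by 0.38, and Cox7a1 (-0.75), the muscle form of a cytochrome oxidase subunit, fell, a call lost in 16 of 20 fits without 1 tumor. Cox7a1 was 0.15 and 9 subunits rose with the muscle term. Falls numbered from 0 to 7 when 1 tumor was left out, with 7 without IFNα9 tumor 5 and 3 without IFNα4 tumor 1 or IFNα4 tumor 3. Without IFNα9 tumors 5 and 10 there were 1 rise and 5 falls.

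Glycolysis and hypoxia genes had 6 rises and 0 falls among 21 (median 0.23, or 0.02 with the muscle term). The 28.6% called, all rises, stands beside 14.7% of all genes higher and 27.1% called in either direction. Gapdh rose by 0.56, while Vegfa (-0.01), Ldha (0.19) and Slc2a1 (0.24) were not called, and with the muscle term 1 gene of the list rose and Gapdh was not called (0.47). Among 17 genes of the ATF4 and ER stress response, 8 rose and 4 fell (median 0.15). The rises include the serine synthesis enzyme Phgdh (0.58), which shares 47.8% of its stretches with other genes, and the falls include Atf3 (-0.79, no overlap), a stress-induced factor. Ddit3 (-0.26) and Trib3 (0.08) were not called, although Ddit3 was called lower in 3 of 20 fits without 1 tumor, and with the muscle term 2 genes rose and 2 fell. Of 14 retinoic acid genes, 1 rose and 4 fell (median -0.15), with 35.7% called against 27.1% of all genes. The rise was Aldh1a2, the enzyme that makes retinoic acid, at 2.23, 2.9 and 3.72 CPM in IFNα4 and 7.67, 9.13 and 17.8 CPM in IFNα9 tumors (log2 fold change 1.78 ± 0.14; edgeR quasi-likelihood test, adjusted p = 4.45e-08), without overlap. Crabp1, a retinoic acid carrier, fell by 0.74, and Cyp26b1, which degrades the acid, was 0.01 and not called. Falls numbered 2 with the muscle term, and Crabp1 was not called (-0.62).

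**Figure D5:**
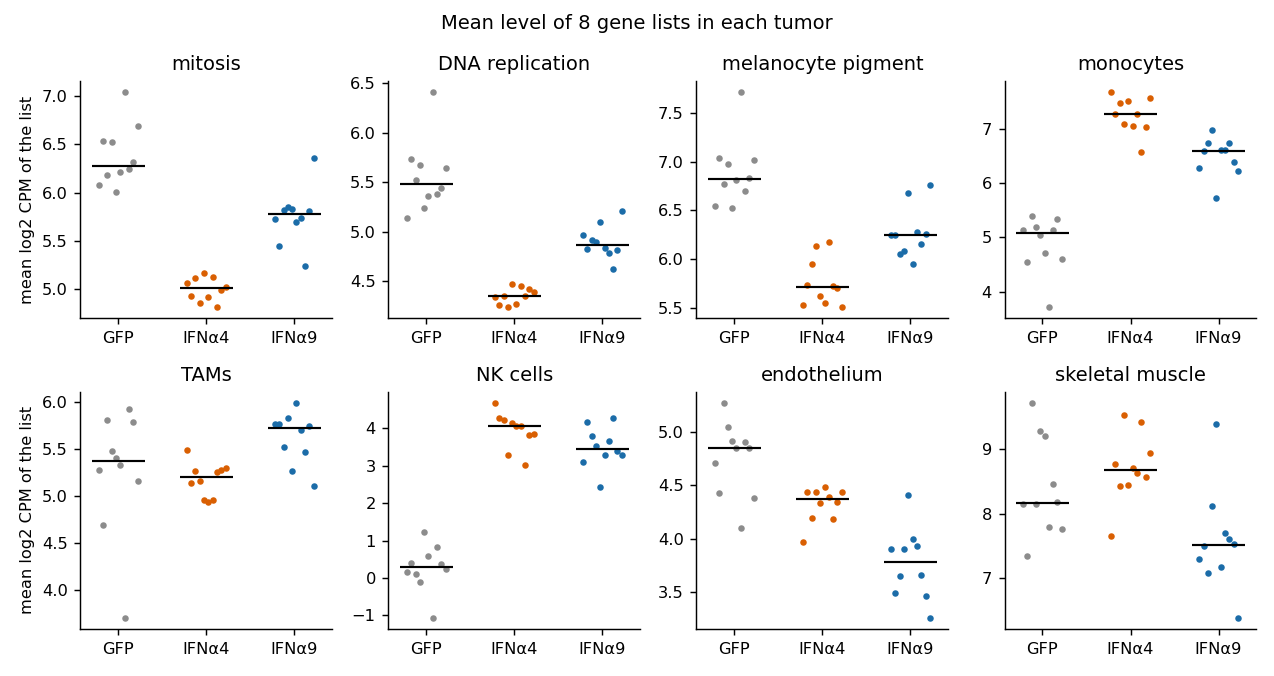
Mean log2 CPM (vertical) of 8 gene lists in each tumor of the 3 types, 10 points a type with a bar at the median. Every IFNα9 tumor lies above every IFNα4 tumor for DNA replication and mitosis, and melanocyte and TAM levels are shifted up while monocyte, NK cell, endothelial and muscle levels are shifted down with overlap.

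Of 19 endothelial genes, 10 fell and 1 rose (median -0.59, or -0.17 with the muscle term). Kdr, the VEGF receptor VEGFR2, was at 68.1, 118 and 149 CPM in IFNα4 tumors, 32.5, 45.5 and 68.7 CPM in IFNα9 tumors and 21.5, 47.2 and 58.7 CPM in B16.GFP.gB.luc tumors. It fell by 1.36 ± 0.14 (edgeR quasi-likelihood test, adjusted p = 6.04e-07), with 9 of 10 IFNα9 tumors below all IFNα4 tumors and a median near that of B16.GFP.gB.luc tumors. Pecam1, CD31, fell by 0.57 and Cdh5, VE-cadherin, by 0.67, the latter not called with the muscle term, under which 4 of the list fell. Selp (-1.30) and Sele (-1.15), the selectins of activated vessels, fell too. Vwf, the von Willebrand factor, rose by 0.68. Fibroblast genes had 5 falls and 0 rises among 20 (median -0.08), with Pdgfra (0.17) and Dpt (0.03) not called and Fbln2 the largest fall (-0.68). The 25.0% called, all falls, stands beside 12.4% of all genes lower and 27.1% called in either direction. Of 20 collagens, 1 rose and 1 fell (median -0.12), with 10.0% called against 27.1% of all genes. Col1a1 (-0.03 ± 0.15), Col3a1 (0.10 ± 0.10) and Col4a1 (-0.20 ± 0.14) were not called. Col11a1 had a log2 fold change of 1.53 and a call lost in 9 of 20 fits without 1 tumor, and Col5a3 fell by 0.39. In the fit with the muscle term, 0 collagens were called in either direction.

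The muscle genes, with a median of -0.99, ran from -1.37 for the calcium channel Ryr1 upward, and 1 fell with their own mean as the term. Acta1, skeletal actin, was at 847, 1941 and 3149 CPM in IFNα4 and 299, 763 and 2824 CPM in IFNα9 tumors, the highest IFNα9 value being tumor 5. Myh4, a fast myosin, was -1.10 and Ckm, muscle creatine kinase, -0.92, with the latter call lost in 15 of 20 fits without 1 tumor. Of 14 keratinocyte genes, 1 fell, Lor (-0.82), and 0 rose (median -0.25), with Krt5 (-0.27), Krt14 (-0.27) and Krt10 (-0.46) not called. Their summed level ran over 9337 to 13257 CPM (median 10543) in IFNα4 tumors and 2944 to 11502 CPM (median 8983) in IFNα9 tumors, lowest in IFNα9 tumor 10. Lor was not called with the muscle term (-0.52), and 2 genes fell when any 1 of IFNα9 tumors 1, 6, 7, 8 and 10 was left out, or tumors 5 and 10 together. In the edgeR test, 0 of 11 adipocyte and 0 of 6 erythroid genes were called, with medians of -0.04 and -0.29. Adipoq (-0.30), Plin1 (-0.15), Cidec (0.10), Hba-a1 (-0.24), Hbb-bs (-0.29) and Alas2 (-0.50) had standard errors of 0.253 to 0.358, and a difference of that size was not detectable here. Hba-a1 and Hbb-bs share 72.3% and 53.2% of their stretches with other globin genes.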

How the data were processed

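Whole tumors were taken on day 8 and their RNA was sequenced, 10 tumors for each of 3 types. The authors deposited raw read counts per gene, made per the study's methods by alignment with HISAT2 and counting with summarizeOverlaps. The submitters' processing notes list FastQC 0.11.3 and HISAT2 2.0.4 and name build mm10, where the methods name mm11. Gene positions here come from a GENCODE annotation of GRCm38 (mm10). Genes named as not analysed here have no identifier in the table used.

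Groups were taken from the sample labels. The 20 tumors of the IFNα4 and IFNα9 types were fitted alone with edgeR 4.0.16 (R 4.3.3), with TMM scaling, keeping genes whose count averaged 10 or more, by the quasi-likelihood test with Benjamini-Hochberg adjustment and a threshold of 0.05. The study's methods used DESeq2, which is an alternative here (1.42.0). CPM levels were scaled by TMM over all 30 tumors, while fold changes come from the fit of the 20. The mean log2 CPM of a list uses a prior count of 2. P-values measure the spread between tumors that are labelled biological replicates.

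The members and gene lists were chosen with earlier results of these data known. The genes named are the transgenes, the 10 largest rises and 10 largest falls among genes called without overlap (Gm names, Rik clones and pseudogenes left out), and in each list the first 3 genes and the largest rise and fall called. Ifit3, Ifit3b, Ifngr1, Ifngr2, Ccl6, Ccl8, Ccl24, Slfn4, Ms4a4c, Clec4d, Hdc, Klrg1, Tnfrsf9, Gap43, Aqp1, Selp, Sele and Gm19385 were chosen after their values were seen, as were those so described in the text. Same-numbered tumors of the types did not deviate together, with correlations from -0.25 to 0.10 and 0 numbers matching best with their own, so the numbers were not treated as pairs. Alternatives were other scalings, filters, DESeq2's Wald test, a fit of all 30 tumors, a replicate block and leaving out each tumor. The muscle term and the fit without IFNα9 tumors 5 and 10 were added after seeing the data. Promoter windows are from RefSeq. Shared sequence is the share of a gene's 50-base exon stretches found in another gene. Some genes that the rule for named genes would pick are not reported here.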

Additional observations from a re-analysis of the deposited data

Results flagged for a closer look

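Within each type, the highest or lowest of 10 tumors was set against the rest, and a value was listed where its gap to the nearest other tumor passed Dixon's critical value for 10 samples, as a share of the type's range. Of 436 sets of values searched, 35 met this, where chance gives about 1 in 20, or 21.8. Most were in IFNα9 tumors 5 and 10. IFNα9 tumor 10 was highest on component 1 (71.4) and IFNα9 tumor 5 on component 2 (63.6). The mean log2 CPM of oxidative phosphorylation subunits was highest in IFNα9 tumor 5 (6.61), that of hypoxia and glycolysis genes was highest in IFNα9 tumor 10 (8.64), and that of keratinocyte genes was lowest in the latter (6.83).

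On the log2 CPM scale, IFNα9 tumor 10 was highest for Tyrp1 (12.91), Car6 (8.95), Mitf (9.23) and Gapdh (9.40). It was lowest for Cpa3 (3.58), Krt10 (9.30), Dpt (8.00), H2-Aa (8.29), Lor (4.28), Krt14 (7.66), Krt5 (8.65) and Cyp26b1 (5.24). IFNα9 tumor 5 was highest for Mrpl10 (5.53), Sgk2 (3.56), Atp5a1 (9.56), Acta1 (11.46), Mrpl12 (6.22) and Cox7a1 (4.02). It was lowest for Il1rl1 (3.40), Ccl2 (5.66) and Mmp13 (0.70). IFNα9 tumor 2 was highest for Aldh1a2 (4.17) and IFNα9 tumor 3 for Rps3a2 (8.73). Among IFNα4 tumors, tumor 8 was lowest for Ly6c2 (9.05) and Il1rl1 (5.27), and tumor 6 was highest for Vegfa (8.29) and Trib3 (3.64) and lowest for Clec9a (2.15). IFNα4 tumor 3 was highest for Pcna (7.42) and IFNα4 tumor 1 lowest for Fbxw18 (-3.10).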

How the results depend on the processing

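With single tumors left out, between 2027 and 2466 genes were higher in IFNα9 tumors and between 1758 and 2102 were lower. DESeq2 size factors, either filter, DESeq2's Wald test and library totals left both counts within 1.5 times, although library totals raised the share of higher calls from 54.2% to 63.1% (2875 higher, 1678 lower). Without a filter class II rises went from 4 to 2, ATF4 rises from 8 to 5 and effector T cell falls from 5 to 3, and the Nos2 rise and the Cox7a1 fall were lost. Library totals gave 17 ribosomal rises in place of 11 and also lost the Cox7a1 fall, and DESeq2's Wald test gave 2 keratinocyte falls in place of 1. The fit of all 30 tumors gave 1688 higher and 1169 lower, and 22 of 174 single genes lost their call in it, Gbp2, Igtp, Irgm1, Trim34a, Cd4, Tcf7, Il1b, Pcna, Trp53, Axl, Spib, Mmp13 and Ptprc among them. There GBP and IRG rises went from 10 to 5, class II rises from 4 to 1, sensor falls from 12 to 6, Trim falls from 6 to 3, NF-κB falls from 21 to 13, T cell falls from 8 to 4, ribosomal rises from 11 to 2, mitochondrial ribosomal rises from 14 to 4 and ATF4 rises and falls from 8 and 4 to 2 and 1. TAM falls went from 3 to 0, effector T cell rises and falls from 2 and 5 to 1 and 3, NK cell rises from 2 to 1, fibroblast falls from 5 to 3, retinoic acid falls from 4 to 2 and p53 and CDK inhibitor rises from 2 to 0, while the rises and falls of respiratory subunits, the fall of a collagen and the rise of a neutrophil gene were all lost. The muscle term gave 1243 higher and 1401 lower. It moved list medians by more than 1.5 times toward 0 for GBP and IRG genes (0.61 to 0.37), TAMs (0.71 to 0.44), CCR7 DCs (-0.20 to -0.13), B cells (-0.39 to -0.18) and keratinocytes (-0.25 to -0.06). The same held for XCR1 DCs (0.16 to 0.09), ATF4 genes (0.15 to 0.08), retinoic acid genes (-0.15 to -0.08), collagens (-0.12 to -0.035) and the muscle genes themselves (-0.99 to -0.04), beside the endothelial and glycolysis medians given above. Medians moved away from 0 for sensors (-0.48 to -0.76), Trim genes (-0.34 to -0.57), class I (-0.22 to -0.36), class II (0.28 to 0.43), chemokines (-0.28 to -0.55), neutrophils (-0.48 to -0.75) and mitochondrial ribosomal genes (0.10 to 0.20), beside the NK cell median given above. The cause was not tested. Without IFNα9 tumors 5 and 10 the counts were 2040 and 1902. List medians there moved by more than 1.5 times toward 0 for class I (-0.22 to -0.10), glycolysis and hypoxia (0.23 to 0.13), ATF4 (0.15 to 0.075), keratinocyte (-0.25 to -0.11), neutrophil (-0.48 to -0.31) and mitochondrial ribosomal genes (0.10 to 0.06). They moved away from 0 for XCR1 DCs (0.16 to 0.27) and erythroid genes (-0.29 to -0.43). With the replicate number as a block 1819 genes were higher and 1647 lower. The tumors share only a number, and 13 of 174 single genes lost their call under the block, Gbp2, Igtp, Irgm1, Mitf and Ptprc among them, while Krt10 gained one. Under it GBP and IRG rises went from 10 to 4, class II rises from 4 to 2, ATF4 rises from 8 to 5 and effector T cell falls from 5 to 3. Respiratory subunit rises went from 2 to 1 and falls from 1 to 3, NK cell and p53 and CDK inhibitor rises each from 2 to 1, keratinocyte falls from 1 to 2, and the rises of Col11a1 (0.65) and Nos2 (0.95) were lost. Of the 174 genes, 21 changed call in at least 1 of 20 fits without a tumor. Values that reversed with the muscle term were Cdkn1b (-0.02), Ckm (0.15), Cox7a1 (0.15), Rps3a2 (-0.03) and the erythroid median (0.219). Rps3a2 also reversed under DESeq2's Wald test (-0.48) and without IFNα9 tumor 3, with values from -0.40 to 8.54 as single tumors were left out. Genes called in neither fit were not counted as reversed. Depth limits genes of a few CPM, such as the pDC and neutrophil markers.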

Other observations

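Interferon-α genes other than the transgenes were also counted. The other 12 Ifna genes summed to 0 to 4 counts in B16.GFP.gB.luc tumors (median 0), 0 to 28 in IFNα4 tumors (median 6.5) and 6 to 44 in IFNα9 tumors (median 22). Several Ifna genes are near copies of one another, and the origin of these reads was not tested.

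Calls were found on all autosomes and X, at uneven shares. Genes called higher ran from 7.3% on chromosome 8 to 24.8% on chromosome 6, against 14.7% of all genes. Genes called lower ran from 7.0% on chromosome 12 to 18.2% on chromosome 19, against 12.4% of all genes. By chromosome, the median log2 fold change was highest on chromosome 6 (0.07, with 250 of 1010 genes higher and 122 lower). It was lower on chromosome 8 (-0.10, with 67 of 914 higher and 152 lower) and chromosome 19 (-0.11, with 24 of 314 higher and 57 lower). No DNA copy number was measured in these tumors.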
